A study of Gallus gallus with 18 samples.

Results

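The genes described here are 10 members of the fibroblast growth factor (FGF) system of the chicken retinal pigment epithelium (RPE): the receptors *FGFR1*, *FGFR2*, *FGFR3*, *FGFR4* and *FGFRL1*, and the family members *FGF1*, *FGF2*, *FGF8*, *FGF10* and *FGF13*. They were chosen by symbol, all 10 were found once each among the 18336 genes of the deposited table, and all 10 passed the filter on low values. The question put to them was whether the RPE at embryonic day 4 (E4, Hamburger Hamilton stage 24) and at E5 (stage 26) differs in its supply of FGF receptors, since RPE that loses the neural retina at E4 can be turned to a retinal fate by FGF2 and RPE at E5 cannot. At each stage, RPE was taken from unoperated embryos ("developing"), from embryos 6 h after the retina was surgically removed ("6hPR"), and from embryos 6 h after the same operation in which heparin beads soaked in bovine FGF2 were placed in the eye cup ("6hPR + FGF2"). There are 3 libraries per group, 18 in all, and a library is made from 3 pooled RPE sheets, so n counts pools and not embryos. No group received beads without FGF2, so in both 6hPR + FGF2 groups the bead and the FGF2 cannot be told apart. No sham-operated group is among those sampled, and the labels give no hours for developing RPE. In 6hPR against developing RPE the operation and the 6 h after it thus cannot be told apart. Changes credited below to retinectomy, the beads or FGF2 stand for these contrasts between groups. The eggs of the RNA-seq embryos are named as SPAFAS pathogen-free in the methods and as White Leghorn in the labels.

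FGFR1 to FGFR4 are cell surface tyrosine kinases. A secreted FGF binds a receptor together with heparan sulfate, the receptor dimerizes, and the signal runs through the adaptor FRS2 and the RAS to MAP kinase cascade to transcription factors of the ETV family and to inhibitors of the same cascade such as the Sprouty proteins and DUSP6. FGFRL1 binds FGFs but lacks the kinase domain. In the early eye, FGF from the surface ectoderm favors neural retina over RPE fate in the optic cup.

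Values are normalized counts, the reads of a gene divided by the library's size factor, so that levels can be compared between libraries but, without gene lengths, not between genes. Reads on genes ran from 50723222 to 72964395 per library. The 12 RPE markers, such as *MITF*, *TYR* and *PMEL*, were all detected in all 18 libraries and summed to between 453296 and 1561333 per library. The 13 periocular mesenchyme markers were also all detected in every library, with sums of 108426 to 219611, and the 13 neural retina neuron markers in the table summed to 4712 to 24333, with 0 to 4 of them at 0 in a library. The 7 erythrocyte markers in the table summed to 297567 to 1233658 per library. Their group means at E4 were 576678 in developing, 973024 in 6hPR and 811636 in 6hPR + FGF2 RPE. At E5 the means were 588373, 387847 and 576982. In each E4 group this mean was above that of the RPE markers, and in each E5 group below it. In bulk RNA, fewer cells of a type and less RNA per cell cannot be told apart. E5 developing replicate 2 had the highest sum of neuron markers. *HINTW*, 1 of 3 genes in the table that the reference places on chromosome W, which only females carry, had 60.4 counts in replicate 3 of E4 6hPR + FGF2 and 0 in replicate 3 of E5 6hPR, where the other 16 libraries had 20330 or more. These are called the libraries poor in chromosome W transcripts. Log2 values (pseudocount 0.5) were compared with limma, p-values were adjusted over the 18287 genes tested by Benjamini-Hochberg, and a gene is said to have risen or fallen where the adjusted p was 0.05 or less. Errors of means are SD (n = 3) and errors of log2 fold changes are SE. All 5 vascular endothelium markers in the table were higher at E5 in developing RPE, beside 10.8% of all genes. In 6hPR and 6hPR + FGF2 RPE 0 of them were higher, with 0 and 1 lower. Of the 7 erythrocyte markers, 0, 0 and 1 were higher at E5 in developing, 6hPR and 6hPR + FGF2 RPE, and 0, 2 and 0 lower. Of the 13 periocular mesenchyme markers, 3, 1 and 1 were higher at E5 in the same conditions, and 4, 5 and 6 lower. Their mean sum went from 117493 at E4 to 187017 at E5 in developing RPE. In 6hPR RPE it went from 161545 to 181093, and in 6hPR + FGF2 RPE from 150365 to 154258. Beside these lists, 10.8%, 11.3% and 16.7% of all genes were higher in these conditions, and 11.1%, 8.41% and 12.8% lower. The part of any of these lists in the member values was not tested.

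The receptors did not pass the test between E4 and E5 in any condition. In developing RPE 0 of the 5 receptors were called, where 22.0% of all genes tested were. In 6hPR RPE it was 0 of 5 against 19.7% of all genes, and in 6hPR + FGF2 RPE 0 of 5 against 29.5%. The median log2 fold change of the 5 receptors from E4 to E5 was -0.01 in developing, 0.10 in 6hPR and 0.08 in FGF2-treated RPE, beside a median of all genes of 0.00 in each. *FGFR1* gave the tightest limits: E5 over E4 was 0.943-fold in developing RPE (95% interval 0.80 to 1.11), 1.07-fold in 6hPR (0.909 to 1.26) and 1.06-fold in 6hPR + FGF2 (0.897 to 1.25). At an unadjusted p under 0.05, 2 of the 15 receptor comparisons passed by limma, and after adjustment edgeR called 0 and DESeq2 1 of 15.

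**Figure D1:**
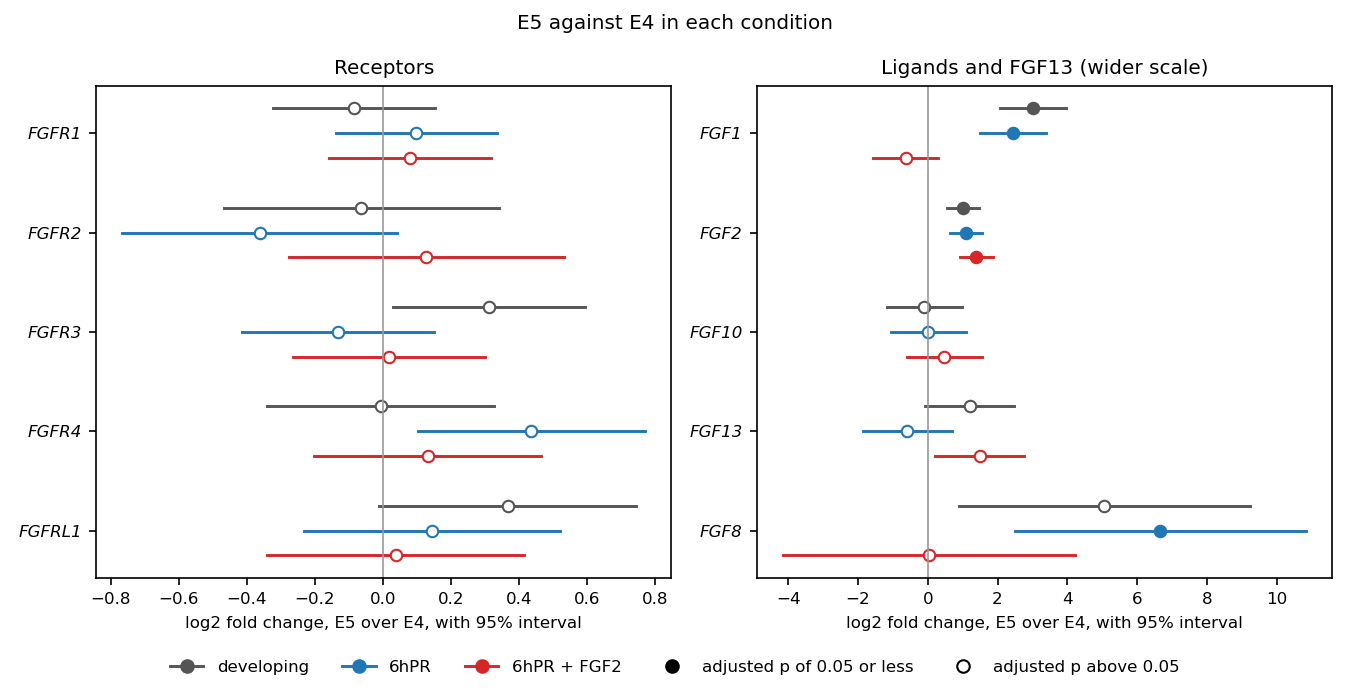
Log2 fold change of E5 over E4 for each gene (points) with its 95% interval (lines), in developing, 6hPR and 6hPR + FGF2 RPE; filled points have an adjusted p of 0.05 or less, and the right panel has a wider scale. All 15 receptor points are open, while *FGF2* is filled in all 3 conditions and *FGF1* in 2.

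Of the other receptors, *FGFR3* in developing RPE had 22883, 23692 and 23876 normalized counts in the 3 E4 libraries and 32394, 25416 and 30144 in the 3 E5 libraries. Each E5 library was above each E4 library, as in 32.9% of all genes, and the log2 fold change of 0.31 ± 0.13 did not pass the test (adjusted p = 0.11). *FGFR4* in 6hPR RPE likewise did not overlap, with 2682, 3439.6 and 3009.7 at E4 and 3923, 4264 and 4120.5 at E5. Its log2 fold change was 0.44 ± 0.16 (adjusted p = 0.063), and this is the 1 receptor comparison of 15 that was called in any alternative: by DESeq2 (adjusted p = 0.034) and without E4 6hPR replicate 2 (adjusted p = 0.042). *FGFR2* gave -0.06 (-0.47 to 0.34), -0.36 (-0.77 to 0.04) and 0.13 (-0.28 to 0.53) as log2 fold change and 95% interval for the developing, 6hPR and 6hPR + FGF2 conditions. *FGFRL1* gave 0.37 (-0.01 to 0.74), 0.14 (-0.23 to 0.52) and 0.04 (-0.34 to 0.41) in the same order, and in developing RPE each E5 library was above each E4 library.

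Within a stage, *FGFR1*, *FGFR3* and *FGFR4* differed between the conditions. *FGFR1* (ENSGALG00000039786), a receptor for many FGFs including FGF2, was highest with FGF2. In E4 RPE its counts were 16831, 17692 and 17989.8 in developing, 19631, 26559.8 and 19445 in 6hPR and 39114, 38792 and 34769.8 in 6hPR + FGF2 libraries. In E5 RPE they were 17653, 14112 and 18025 in developing, 22364, 23602 and 23606 in 6hPR and 39916, 38068 and 41036 in 6hPR + FGF2 libraries. At each stage the 3 conditions did not overlap, and every library with FGF2 was at 34770 or above, whereas no other library exceeded 26560. Against developing RPE, 6hPR + FGF2 raised *FGFR1* 2.14-fold at E4 (log2 1.10 ± 0.11, adjusted p = 8.1e-06) and 2.40-fold at E5 (log2 1.27 ± 0.11, adjusted p = 8.4e-07). Against 6hPR, the beads raised it 1.73-fold at E4 (adjusted p = 0.00063) and 1.71-fold at E5 (adjusted p = 0.00019). Retinectomy alone raised it 1.41-fold at E5 (adjusted p = 0.0057), while at E4 the 1.24-fold difference did not pass (adjusted p = 0.084) except with DESeq2 (0.035) or quantile normalization (0.012). In a fit of only the groups compared, the E5 rise after retinectomy (0.069) and the E4 rise over 6hPR (0.087) did not pass. No difference between the stages' responses was detected: between 6hPR and 6hPR + FGF2 the E5 minus E4 difference in log2 fold change was -0.02 (95% interval -0.35 to 0.32, adjusted p = 0.96).

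**Figure D2:**
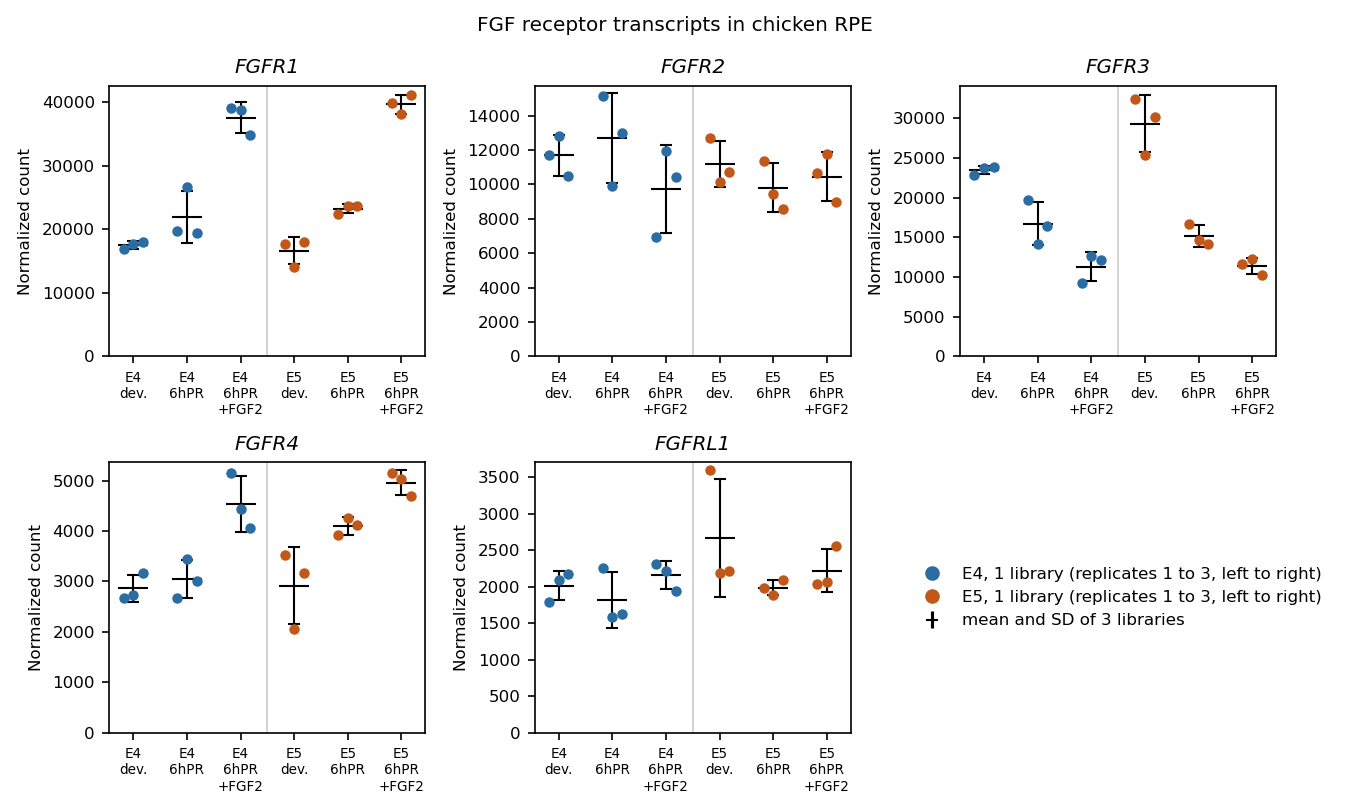
Normalized counts (linear axes from 0) of the 5 receptor genes in the 18 libraries, by stage and condition; points are libraries, bars the mean and SD of 3. Mean *FGFR1* is higher and mean *FGFR3* lower in each further condition, at E4 and at E5; the E4 difference of *FGFR1* between developing and 6hPR RPE did not pass the test.

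*FGFR3* (ENSGALG00000015708) moved the opposite way. Its E4 counts were 22883, 23692 and 23876 in developing, 19643, 14177 and 16354 in 6hPR and 9198, 12588 and 12079.7 in 6hPR + FGF2 libraries. Its E5 counts in 6hPR were 16712, 14591 and 14183 and in 6hPR + FGF2 11586, 12199 and 10295, below all 3 developing libraries given above. Within a stage no 2 conditions overlapped. *FGFR3* fell after retinectomy to 0.706 of the developing level at E4 (log2 -0.50 ± 0.13, adjusted p = 0.02) and 0.518 at E5 (log2 -0.95 ± 0.13, adjusted p = 0.00013). With FGF2 it fell to 0.476 (adjusted p = 4.8e-05) and 0.388 (adjusted p = 2.2e-06) of the developing level. The further step from 6hPR to 6hPR + FGF2 was 0.675-fold at E4 (adjusted p = 0.016) and 0.749-fold at E5 (adjusted p = 0.031). The E4 fall after retinectomy lost its call in fits lacking any 1 of the 3 E4 developing libraries (adjusted p = 0.051, 0.059 and 0.065 for replicates 1, 2 and 3) or 6hPR replicate 2 (0.091) or 3 (0.052). The E4 step to FGF2 lost its call without 6hPR replicate 1 (0.090) or 6hPR + FGF2 replicate 1 (0.081), and the E5 step without any library of these groups other than 6hPR + FGF2 replicate 2 (0.052 to 0.12). With only the groups compared, the E4 fall after retinectomy (0.074) and the E4 step (0.19) did not pass, nor did the former with quantile normalization (0.10), or the E5 step without the variance trend (0.051) or both libraries poor in chromosome W transcripts (0.057). The larger fall after retinectomy at E5 than at E4, -0.45 in log2, did not pass the test of the difference (adjusted p = 0.24).

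*FGFR4* (ENSGALG00000028543) had 2682, 2739 and 3170.5 in E4 developing, 2682, 3439.6 and 3009.7 in E4 6hPR and 5149, 4433 and 4056 in E4 6hPR + FGF2 libraries. At E5 the counts were 3525, 2059 and 3167 in developing, 3923, 4264 and 4120.5 in 6hPR and 5156, 5039 and 4695 in 6hPR + FGF2 libraries. The libraries with FGF2 were above all developing libraries of both stages. *FGFR4* rose 1.58-fold at E4 (adjusted p = 0.007) and 1.74-fold at E5 (adjusted p = 0.0012) in 6hPR + FGF2 against developing RPE. Against 6hPR it rose 1.49-fold at E4 (adjusted p = 0.033), and at E5 the value was 1.21-fold (adjusted p = 0.21). The E5 value passed in a fit of only the groups compared (adjusted p = 0.018), and these E5 groups did not overlap. The step was not called different between the stages. Retinectomy alone raised *FGFR4* at E5, 1.44-fold (adjusted p = 0.028), where the value at E4 was 1.06-fold (adjusted p = 0.81). In a fit of only the 2 groups, 6hPR + FGF2 against developing RPE at E5 did not pass (0.068). The E5 rise after retinectomy lost its call without E5 developing replicate 2 (0.11) or 6hPR replicate 2 (0.087) or 3 (0.075), and the E4 step to FGF2 without 6hPR replicate 1 (0.15) or 3 (0.092) or 6hPR + FGF2 replicate 1 (0.14) or 2 (0.071). The former was also lost with only the groups compared (0.23) and without both libraries poor in chromosome W transcripts (0.079), and the latter with only the groups compared (0.12) and without the variance trend (0.057).

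*FGFR2* (ENSGALG00000009495), the receptor of FGF7 and FGF10 in epithelia, and *FGFRL1* (ENSGALG00000037525) did not pass in any of the 12 comparisons. *FGFR2* libraries ran from 6932 in E4 6hPR + FGF2 replicate 1 to 15150 in E4 6hPR replicate 1, and the 6 group means from 9760.0 ± 2564 to 12696 ± 2619, each overlapping its neighbour in the order. Over the 18 libraries, the genes whose log2 values followed *FGFR2* most closely were *JAG1*, a Notch ligand (Pearson r = 0.887), *HMCN1*, an extracellular matrix gene (0.884), and *PDGFRA* (0.874), the PDGF receptor that is on the mesenchyme marker list. The mesenchyme marker sum ranged from 143440 to 189401 in E4 6hPR and from 109989 to 183228 in E5 6hPR + FGF2 libraries, and its part in the *FGFR2* values was not tested. *FGFRL1* ran from 1581 in E4 6hPR replicate 2 to 3591 in E5 developing replicate 1, where the other 17 libraries were at or below 2555.

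The reads on *FGFR1* to *FGFR4* together, a rough measure of how much kinase receptor message there was, summed to 55542 ± 1433 in E4 developing, 54343 ± 2656 in E4 6hPR and 63153 ± 4003 in E4 6hPR + FGF2 RPE. At E5 the sums were 60033 ± 7482, 52258 ± 1968 and 66461 ± 1269. E5 over E4 this was a change of 8.09%, -3.84% and 5.24% (developing, 6hPR, 6hPR + FGF2), with overlapping libraries in all 3 conditions. With FGF2, the sum was higher than in 6hPR by 16.2% at E4 and 27.2% at E5, and these groups did not overlap. As a share of all reads on genes, without size factors, the E4 groups did overlap, while the E5 groups did not. No test was run on the sum. These are sums of reads, in which a long transcript weighs more than a short one.

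**Figure D3:**
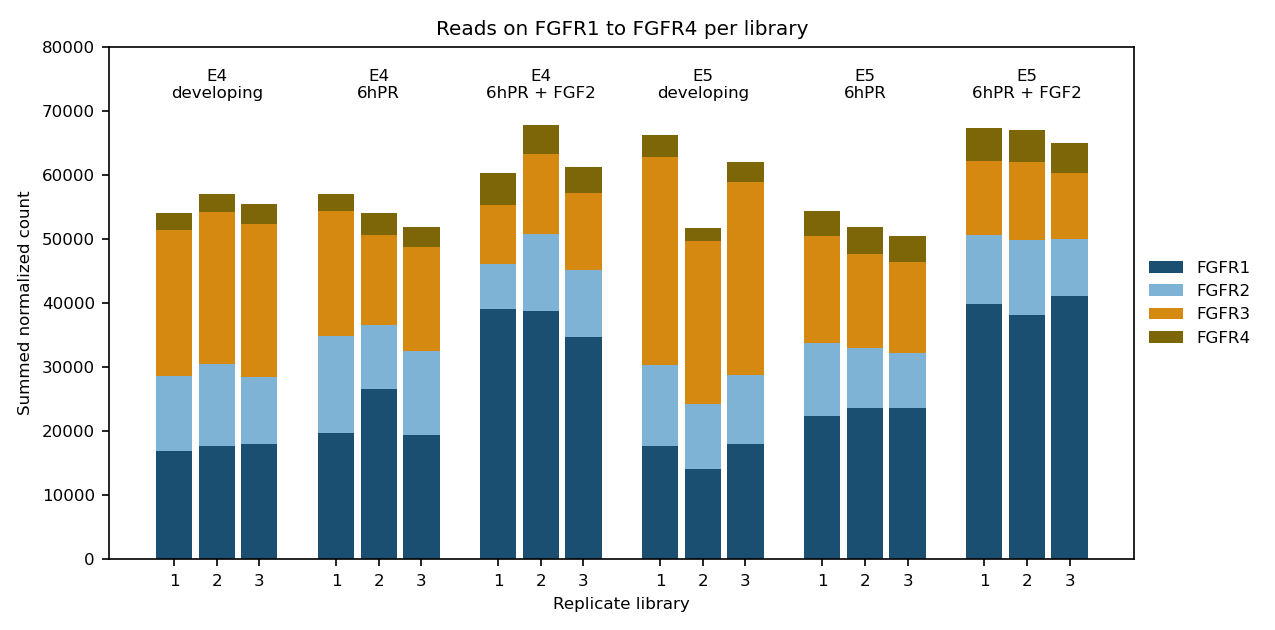
Stacked normalized counts of *FGFR1* to *FGFR4* in each of the 18 libraries (x axis: replicate, y axis: summed normalized count from 0). The total stays between 50506 and 67745 while the *FGFR1* part grows and the *FGFR3* part shrinks from developing to 6hPR to 6hPR + FGF2 RPE.

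The make-up of the sum shifted far more than its size. *FGFR1* took 31.5 ± 0.754% of these reads in E4 developing, 40.3 ± 7.74% in E4 6hPR and 59.6 ± 4.50% in E4 6hPR + FGF2 RPE. At E5 its shares were 27.6 ± 1.24%, 44.4 ± 2.95% and 59.7 ± 3.21%. *FGFR3* went from 42.3 ± 0.698% to 30.7 ± 4.16% to 17.8 ± 2.32% at E4, and from 48.9 ± 0.285% to 29.0 ± 1.51% to 17.1 ± 1.18% at E5. The read ratio of *FGFR1* to *FGFR3* was 0.735 to 0.753 in E4 developing and 0.545 to 0.598 in E5 developing libraries, ranges that do not overlap. In 6hPR libraries the ratio was 0.999 to 1.87 at E4 and 1.34 to 1.66 at E5, and with FGF2 it was 2.88 to 4.25 at E4 and 3.12 to 3.99 at E5, so that here the stages overlapped. Within the E4 6hPR group replicate 2 had both the highest *FGFR1* and the lowest *FGFR3*.

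Several genes followed a receptor across the 18 libraries, by Pearson r of log2 values among 10602 genes with a symbol. With *FGFR1* these were *USP36* (0.973), a deubiquitinase of the nucleolus, *GAS2L1* (0.973), a cytoskeletal linker, and *GRIN2C* (0.965), a glutamate receptor subunit. *USP36* went from 3150 ± 74.5 in E4 developing to 6846 ± 952 in E4 6hPR + FGF2 RPE, and from 2794 ± 588 to 7326 ± 265 at E5. With *FGFR3* they were *ZNF512B* (0.929), *VEPH1* (0.925) and *SRBD1* (0.919). *VEPH1* went from 1500 ± 110 to 223 ± 36.2 between E4 developing and E4 6hPR + FGF2 RPE, and from 2638 ± 324 to 244 ± 25.1 at E5. The libraries share the same conditions, so these values describe likeness over 6 groups and no more.

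Of the 5 ligand members, 2 were called between the stages in developing RPE (22.0% of all genes), 3 in 6hPR (19.7%) and 1 with FGF2 (29.5%), and *FGF10* and *FGF13* in none. *FGF2* (ENSGALG00000011835), which encodes the same factor that was delivered on beads and which leaves cells without a signal peptide, had 78.2, 65.6 and 77.5 normalized counts in E4 developing and 217, 114 and 131 in E5 developing libraries. In 6hPR RPE it had 127, 159.8 and 116 at E4 and 252, 304 and 298 at E5. In 6hPR + FGF2 RPE it had 134, 124 and 132 at E4 and 320.3, 350.0 and 359 at E5. Each E5 library lay above each E4 library of its condition. E5 was higher 2.01-fold in developing (log2 1.00 ± 0.22, adjusted p = 0.0036), 2.13-fold in 6hPR (log2 1.09 ± 0.22, adjusted p = 0.0024) and 2.63-fold in 6hPR + FGF2 RPE (log2 1.39 ± 0.22, adjusted p = 0.00036). Retinectomy raised *FGF2* 1.80-fold at E4 (adjusted p = 0.017) and 1.91-fold at E5 (adjusted p = 0.0065). Adding the beads gave 0.977-fold at E4 (adjusted p = 0.98) and 1.21-fold at E5 (adjusted p = 0.38) against 6hPR, neither called. The stage difference in developing RPE lost its call in a fit of only these 2 groups (adjusted p = 0.11), and the E4 rise after retinectomy without E4 developing replicate 2 (0.066) or E4 6hPR replicate 2 (0.072). With only the groups compared, the rise after retinectomy did not pass at E4 (0.054) or E5 (0.14), and at E4 not with quantile normalization either (0.060).

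The genes closest to *FGF2* over the 18 libraries were *CDHR1* (r = 0.969), a photoreceptor cadherin, *MANBA* (0.964), a lysosomal mannosidase, and *PAPSS2* (0.957), which makes the sulfate donor used for heparan sulfate. *CDHR1* went from 210 ± 15.7 in E4 developing to 673 ± 261 in E5 developing RPE, and reached 2352 ± 243 in E5 6hPR + FGF2 RPE. The RPE marker list also moved with stage: 8 of its 12 genes were higher at E5 in developing RPE and 10 of 12 in either operated condition, with 0 lower in each, beside 10.8%, 11.3% and 16.7% of all genes called higher. The summed leukocyte markers also moved with stage, from a mean of 4201 to 7497 in developing, 4785 to 11022 in 6hPR and 5124 to 11217 in 6hPR + FGF2 RPE, with 1, 1 and 2 of its 5 genes called higher and 0 lower. The median log2 fold change of these 5 genes was -0.22, 0.01 and 0.05, so the sums do not show a rise of the typical leukocyte marker. The part of either list in the *FGF2* values was not tested.

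*FGF1* (ENSGALG00000031255), which like *FGF2* lacks a signal peptide, was low in E4 developing RPE. Its counts were 10.7, 9.63 and 5.65 in E4 developing, 15.1, 37.6 and 21.0 in E4 6hPR and 82.9, 76.6 and 110.0 in E4 6hPR + FGF2 libraries. At E5 they were 81.5, 42.0 and 106 in developing, 95.8, 125 and 172 in 6hPR and 34.7, 64.4 and 82.4 in 6hPR + FGF2 libraries. At E4 each condition lay above the one before it without overlap, while at E5 the 6hPR + FGF2 libraries overlapped the developing ones and lay below the 6hPR ones. E5 exceeded E4 8.10-fold in developing (log2 3.02 ± 0.44, adjusted p = 0.00023) and 5.46-fold in 6hPR RPE (log2 2.45 ± 0.44, adjusted p = 0.0012), and with FGF2 the value was 0.643-fold (adjusted p = 0.31). Against developing RPE, 6hPR + FGF2 raised *FGF1* 10.05-fold at E4 (adjusted p = 8.2e-05), with 0.798-fold at E5 (adjusted p = 0.63). The 2 responses differed by -3.65 ± 0.63 in log2 (adjusted p = 0.0045). The steps from 6hPR to 6hPR + FGF2 were 3.82-fold at E4 (adjusted p = 0.013) and 0.450-fold at E5 (adjusted p = 0.067), a difference of -3.09 ± 0.63 in log2 (adjusted p = 0.026).

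Among the 10 members, *FGF1* was the 1 gene called in a test of the stage difference of a response, in the 6hPR + FGF2 response (1 of 10, beside 5.56% of all genes) and in the step from 6hPR to 6hPR + FGF2 (1 of 10, beside 2.54%). The 6hPR response gave 0 of 10, beside 2.99%. At an unadjusted p under 0.05 limma gave 1, *FGFR3*, and edgeR and DESeq2 called 0 after adjustment. The call on the step was lost (adjusted p = 0.057 to 0.082) when any 1 of E4 6hPR replicates 1 and 3, E4 6hPR + FGF2 replicate 3, E5 6hPR replicates 2 and 3 or E5 6hPR + FGF2 replicates 1 and 2 was left out, and the call on the 6hPR + FGF2 response with none. The E4 step lost its call without E4 6hPR replicate 1 (0.076) and without both libraries poor in chromosome W transcripts (0.056), as well as with only the groups compared (0.10). The E5 difference, -1.15 in log2, passed with DESeq2 (0.036) and with a pseudocount of 5 (0.046). The E4 rise of *FGF1* after retinectomy alone, 2.63-fold (adjusted p = 0.048), was lost under 6 alternatives other than left-out libraries (0.0503 to 0.12) and without any library of its groups other than E4 6hPR replicate 1 (0.070 to 0.19).

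**Figure D4:**
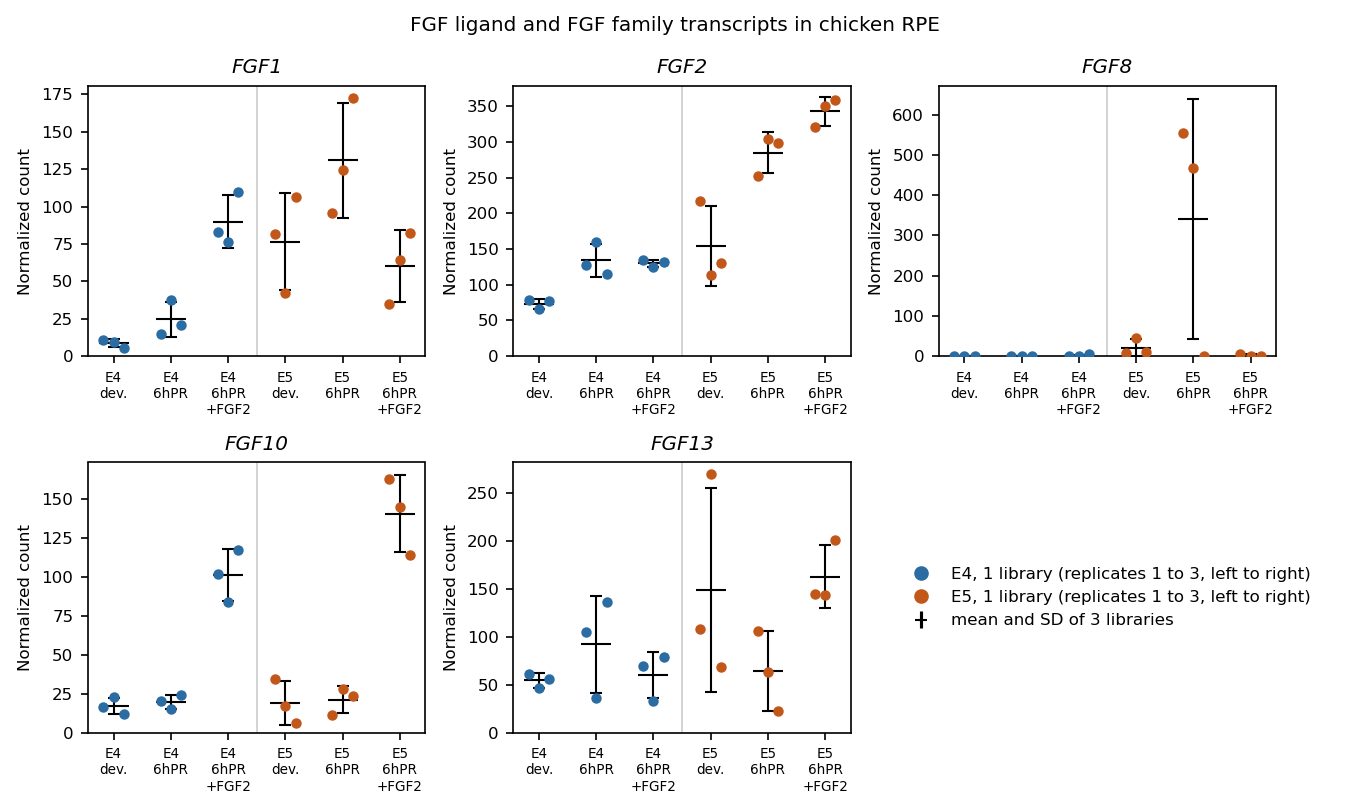
Normalized counts (linear axes from 0) of *FGF1*, *FGF2*, *FGF8*, *FGF10* and *FGF13* in the 18 libraries, by stage and condition; points are libraries, bars the mean and SD of 3. *FGF2* is higher at E5 in each condition, *FGF10* is high with FGF2 at both stages, and *FGF8* is high in 2 libraries of E5 6hPR.

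*FGF10* (ENSGALG00000014872), a mesenchymal signal to epithelia in many organs, was higher with the FGF2 beads at both stages. E4 libraries had 16.6, 22.8 and 12.1 counts in developing, 20.1, 15.3 and 24.2 in 6hPR and 102, 84.2 and 118 in 6hPR + FGF2 RPE. E5 libraries had 34.5, 17.00 and 6.11 in developing, 11.3, 28.1 and 23.8 in 6hPR and 163, 145 and 114 in 6hPR + FGF2 RPE. The 6 libraries with FGF2 were at 84.2 or more and the other 12 at 34.5 or less. Against 6hPR, *FGF10* rose 5.04-fold at E4 (log2 2.33 ± 0.50, adjusted p = 0.0098) and 6.93-fold at E5 (log2 2.79 ± 0.50, adjusted p = 0.0011). The difference between the 2 steps was 0.46 (95% interval -1.06 to 1.98), and E5 over E4 with FGF2 was 1.39-fold (adjusted p = 0.52). In the same step the mesenchyme list had 0 of 13 genes higher and 3 lower at E4 (4.99% and 3.28% of all genes), and 0 higher and 4 lower at E5 (13.9% and 12.3%), and its part in the *FGF10* values was not tested.

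*FGF8* (ENSGALG00000007706), a secreted factor made in the center of the early chick neural retina, was read in few libraries. It was at 0 in all 3 E4 developing and all 3 E4 6hPR libraries, and at 0, 0 and 4.32 in E4 6hPR + FGF2. At E5 it had 8.36, 45.0 and 11.0 in developing, 555, 467 and 0 in 6hPR and 4.68, 0 and 0 in 6hPR + FGF2 libraries. E5 6hPR replicates 1 and 2 stand far above all others, while replicate 3 of the same group had 0 reads. This replicate 3 is also 1 of the libraries poor in chromosome W transcripts. With 3 counts per library taken as the floor for a 0, E5 6hPR RPE was at least 105-fold higher than E4 6hPR RPE on the means, at least 158-fold without E5 6hPR replicate 3, 86.0-fold without replicate 2 and 72.3-fold without replicate 1. The fit called this difference (adjusted p = 0.026) and a fall from 6hPR to 6hPR + FGF2 at E5 (adjusted p = 0.049). Both calls depend on single libraries and on the fit: the first was lost with only the groups compared (0.21), without any 1 of the 3 E4 6hPR libraries (0.051 to 0.071) or without E5 6hPR replicate 1 (0.12) or 2 (0.13), and the second with DESeq2 (0.055), without the variance trend (0.069), with only the groups compared (0.23) and without any library of its groups other than E5 6hPR replicate 3 (0.051 to 0.21). In developing RPE, E5 was at least 8.07-fold above E4, or 3.64-fold without E5 developing replicate 2, with an adjusted p of 0.08. This difference passed in a fit of only the groups compared (adjusted p = 0.018). Without E5 6hPR replicate 3, 6hPR exceeded developing RPE at E5 (adjusted p = 0.0092), where with all libraries the adjusted p was 0.62, and the stage difference of the step to FGF2 was called (0.013 in place of 0.15). Without both libraries poor in chromosome W transcripts these 2 results were called as well (0.0039 and 0.022).

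Neural genes moved with *FGF8* in part. *ATOH7*, which commits retinal progenitors to the ganglion cell fate, had 877, 589 and 60.0 counts in E5 6hPR replicates 1, 2 and 3, in the same order as *FGF8*. In E5 developing RPE, though, *ATOH7* was at 625, 4744 and 52.5 and the summed neuron markers at 7135, 24333 and 6025, so that replicate 2 had the most neuronal message of all libraries and 45.0 counts of *FGF8*. *FGF19*, another factor of the early retina, had 255, 1969 and 46.4 counts in E5 developing and 656, 526 and 40.9 in E5 6hPR libraries, and at most 50.4 elsewhere. *FGF19* was called higher at E5 in developing (log2 4.54 ± 1.31, adjusted p = 0.021) and 6hPR RPE (log2 6.06 ± 1.31, adjusted p = 0.0041). Of the 13 neuron markers, 8 were called higher at E5 in developing (10.8% of all genes) and 2 in 6hPR RPE (11.3%), with 0 lower. The 8 neural retina progenitor markers summed to 11949, 38383 and 6937 in E5 developing and 30216, 32622 and 25805 in E5 6hPR libraries. E4 6hPR + FGF2 replicate 1 had 38741. Of these 8 markers, 4 were called higher at E5 in developing and 0 in 6hPR RPE, with 0 lower in both. The part of neural retina cells in the *FGF8* and *FGF19* values was not tested.

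**Figure D5:**
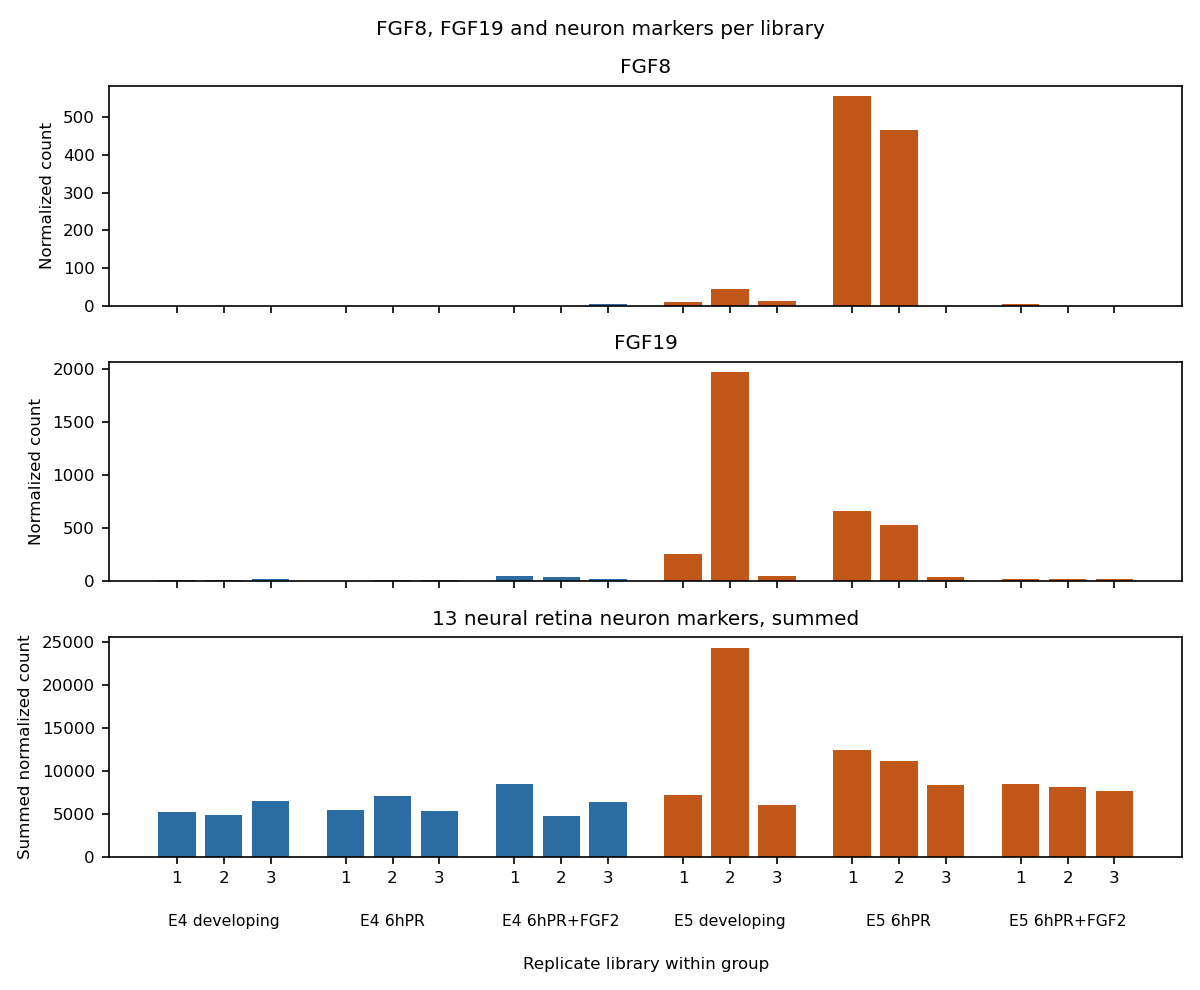
Normalized counts of *FGF8* and *FGF19* and the summed normalized counts of 13 neural retina neuron markers in each of the 18 libraries (x axis: replicate within group; bars start at 0). *FGF8* peaks in E5 6hPR replicates 1 and 2, whereas *FGF19* and the neuron markers peak in E5 developing replicate 2.

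*FGF13* (ENSGALG00000006508), which stays in the cell, binds sodium channels and microtubules and does not act through the receptors, did not pass in any of the 12 comparisons. Its counts were 61.5, 46.4 and 55.7 in E4 developing, 104, 36.4 and 136 in E4 6hPR and 69.3, 33.5 and 78.8 in E4 6hPR + FGF2 libraries. At E5 they were 108, 269 and 68.4 in developing, 106, 62.8 and 22.8 in 6hPR and 144, 143 and 200.4 in 6hPR + FGF2 libraries, the highest again in E5 developing replicate 2. With FGF2, every E5 library was above every E4 library, at 2.81-fold (adjusted p = 0.073). This value passed with DESeq2 (0.041), in a fit of only these groups (0.040) and without both libraries poor in chromosome W transcripts (0.049). E5 against E4 in developing RPE passed with DESeq2 (0.048), and the E5 step to FGF2 without E5 6hPR replicate 1 (0.027).

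Counting all 10 members between the stages, developing RPE had 2 higher and 0 lower at E5, where 10.8% of all genes tested were higher and 11.1% lower. In 6hPR RPE 3 were higher and 0 lower (all genes 11.3% and 8.41%), and with FGF2 it was 1 and 0 (16.7% and 12.8%). After retinectomy alone, 2 rose and 1 fell at E4 (all genes 5.68% and 7.9%), and 3 rose and 1 fell at E5 (9.92% and 9.09%). In 6hPR + FGF2 against developing RPE, 5 rose and 1 fell at E4 (9.82% and 10.2%), and 4 rose and 1 fell at E5 (15.1% and 13.7%). The step from 6hPR to FGF2 raised 4 and lowered 1 at E4 (4.99% and 3.28%), and raised 2 and lowered 2 at E5 (13.9% and 12.3%). In either direction the calls were 13.6% and 19.0% of all genes after retinectomy at E4 and E5, 20.0% and 28.8% in 6hPR + FGF2 against developing RPE, and 8.27% and 26.2% in the FGF2 step. *FGFR3* was the member that fell in each of these 6 within-stage comparisons, and *FGF8* the second one that fell in the E5 step.

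Groups that did not overlap were at least as frequent as calls in each of these comparisons. Between E4 and E5 this held for 6 of the 10 members in developing RPE (32.9% of all genes), 3 in 6hPR (33.8%) and 2 with FGF2 (48.0%). After retinectomy it held for 4 at E4 (33.6%) and 5 at E5 (28.2%), in 6hPR + FGF2 against developing RPE for 6 at E4 (38.6%) and 6 at E5 (38.3%), and in the FGF2 step for 5 at E4 (23.5%) and 7 at E5 (48.8%). The comparisons within a stage share their groups, so these counts are not independent of each other.

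The wider ligand list had 15 of 19 named genes in the table, the 5 members among them. Between the stages, developing RPE had 4 higher and 0 lower at E5, followed by 5 and 0 in 6hPR and 2 and 1 in 6hPR + FGF2 RPE. Of all genes, 10.8%, 11.3% and 16.7% were called higher and 11.1%, 8.41% and 12.8% lower. *FGF18*, a secreted FGF that favors FGFR3, had 50.2, 134 and 54.7 counts in E4 6hPR and 403, 315 and 448 in E5 6hPR libraries, which do not overlap. It was higher at E5 by log2 2.42 ± 0.66 (adjusted p = 0.017) in 6hPR and rose after retinectomy at E5 by log2 2.57 ± 0.66 (adjusted p = 0.012). At E4 the mean of *FGF18* went from 20.8 ± 6.48 in developing to 79.6 ± 47.1 in 6hPR RPE, without overlap, as in 33.6% of all genes. The stage difference of the 6hPR response was called for 0 of the 15 ligands, beside 2.99% of all genes. *FGF12*, an intracellular relative of *FGF13*, fell from 6hPR to 6hPR + FGF2 at E5 by 0.55 in log2 (adjusted p = 0.025). *FGF11*, also intracellular but not on this list or in its counts, fell in the same step by 0.78 (adjusted p = 0.031). *FGF7*, like *FGF10* a ligand of FGFR2, rose after retinectomy at E4 by log2 1.57 ± 0.40 (adjusted p = 0.017), from 46.5 ± 25.7 to 121 ± 25.1 counts. Outside the naming rule and chosen after their values were seen, *FGF16* was at 0 in all developing and all E4 6hPR libraries and in 2 of 3 E5 6hPR libraries, and had 8.40, 7.66 and 7.55 counts in E4 and 111, 103 and 29.5 in E5 6hPR + FGF2 libraries, with E5 above E4 (adjusted p = 0.011). *FGF14* went from 6hPR to 6hPR + FGF2 RPE from 21.9 ± 5.78 to 46.9 ± 11.7 at E4, where it did not pass (adjusted p = 0.076), and from 12.3 ± 4.50 to 74.9 ± 20.3 at E5 (adjusted p = 0.00014).

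The list of heparan sulfate carriers and enzymes, which also holds co-receptors and FGF binding proteins, had calls between the stages in both directions. Of 20 genes tested, developing RPE had 7 higher and 1 lower at E5 (10.8% and 11.1% of all genes), followed by 3 and 3 in 6hPR (11.3% and 8.41%), and 9 and 3 in 6hPR + FGF2 RPE (16.7% and 12.8%). In what follows, brackets hold the 2 group means (E4 to E5, or 6hPR to 6hPR + FGF2), the log2 fold change with its SE and the limma adjusted p. The syndecan *SDC2* was higher at E5 in developing (10815 to 18879, log2 0.80 ± 0.13, 0.00058) and 6hPR RPE (8190.3 to 14699, log2 0.85 ± 0.13, 0.00041), and *SDC4* in 6hPR RPE (3866 to 8561, log2 1.18 ± 0.17, 0.00025). *SULF1*, which removes sulfate from heparan sulfate, was higher at E5 in developing (4348 to 10345, log2 1.31 ± 0.25, 0.0013) and 6hPR + FGF2 RPE (3602 to 8579, log2 1.28 ± 0.25, 0.0015). The glypican *GPC4* was lower at E5 in 6hPR (16100.1 to 10869, log2 -0.57 ± 0.08, 0.00025) and 6hPR + FGF2 RPE (21691 to 13141, log2 -0.72 ± 0.08, 3.9e-05), and *GPC3* in 6hPR RPE (3702 to 2341, log2 -0.66 ± 0.22, 0.045). *FGFBP2* was lower at E5 with FGF2 (95.4 to 40.3, log2 -1.27 ± 0.36, 0.016).

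The syndecan *SDC1* changed side: lower at E5 in developing RPE (3391 to 2377, log2 -0.53 ± 0.13, 0.0072) and higher at E5 with FGF2 (2699 to 5088, log2 0.91 ± 0.13, 0.00016). The FGF2 step raised *SDC1* at E5 (1987 to 5088, log2 1.36 ± 0.13, 5e-06), and this step differed between the stages by 1.03 in log2 (adjusted p = 0.017). In the same step, 3 of the 20 genes rose and 2 fell at E4 (4.99% and 3.28% of all genes). At E5, 8 rose and 2 fell (13.9% and 12.3%). *EXT1*, which builds the heparan sulfate chain, rose at E4 (2967 to 4674, log2 0.67 ± 0.11, 0.002) and E5 (3394 to 5324, log2 0.65 ± 0.11, 0.00076), and *SDC2* rose at E4 (8190.3 to 12658, log2 0.63 ± 0.13, 0.009). *GPC3* fell at both stages (3702 to 1955, log2 -0.92 ± 0.22, 0.017, and 2341 to 1399, log2 -0.74 ± 0.22, 0.021), *SULF1* at E4 (7156 to 3602, log2 -1.02 ± 0.25, 0.018) and *GPC5* at E5 (234 to 141, log2 -0.74 ± 0.22, 0.025).

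Of the 20 tested genes that carry the signal from the receptor, developing RPE had 1 higher and 2 lower at E5 (10.8% and 11.1% of all genes). In 6hPR RPE it was 2 and 1 (11.3% and 8.41%), and in 6hPR + FGF2 RPE 11 and 1 (16.7% and 12.8%). The step from 6hPR to 6hPR + FGF2 raised 3 and lowered 1 at E4 (4.99% and 3.28%), and raised 9 and lowered 1 at E5 (13.9% and 12.3%). The stage difference was called for 0 of the 20 genes in the 6hPR response, the 6hPR + FGF2 response and this step. Of all genes it was called for 2.99%, 5.56% and 2.54%. The adaptor *GAB1* was higher at E5 in developing (7297 to 12244, log2 0.75 ± 0.11, 0.00024) and 6hPR RPE (7797 to 12894, log2 0.74 ± 0.11, 0.00029) and fell with FGF2 at E5 (12894 to 9389, log2 -0.46 ± 0.11, 0.0076). *PIK3R1*, a subunit of PI3 kinase, was higher at E5 in 6hPR (911 to 2194, log2 1.29 ± 0.33, 0.011) and 6hPR + FGF2 RPE (871 to 2171, log2 1.39 ± 0.33, 0.0053). The adaptor *FRS2*, which docks on the receptor itself, was higher at E5 with FGF2 (421 to 853, log2 1.03 ± 0.31, 0.022) and rose in the FGF2 step at E5 (462 to 853, log2 0.90 ± 0.31, 0.044), as did *PIK3CA* (1832 to 2883, log2 0.67 ± 0.20, 0.021). *PLCG1* was lower at E5 in developing (8118 to 5622, log2 -0.53 ± 0.11, 0.0019) and 6hPR RPE (7066 to 4963, log2 -0.51 ± 0.11, 0.0032), and *MAP2K2* in developing (4680.5 to 3356, log2 -0.48 ± 0.08, 0.00044) and 6hPR + FGF2 RPE (4691 to 3998, log2 -0.23 ± 0.08, 0.036). At E4 the FGF2 step raised *MAP2K1* (5523 to 6519, log2 0.24 ± 0.06, 0.028) and *MAP2K2* (3800.3 to 4691, log2 0.31 ± 0.08, 0.024) and lowered *FRS3* (1087 to 776, log2 -0.48 ± 0.13, 0.037).

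Of the 15 feedback and ETV genes, which are known readouts of FGF signaling, 10 rose with FGF2 against 6hPR at E4 (4.99% of all genes) and 10 at E5 (13.9%), with 0 lower and 5 not passing at either stage. *DUSP6*, a phosphatase of ERK, rose at E4 (1718 to 6437, log2 1.96 ± 0.20, 6.7e-05), *ETV4* at E5 (1666 to 7439, log2 2.16 ± 0.31, 0.00021), and *SPRY4* at E4 (188 to 749.9, log2 2.16 ± 0.39, 0.0036) and E5 (242 to 925, log2 2.07 ± 0.39, 0.0015). These are the largest rises at each stage, so a gene named at 1 stage can also have risen at the other. The step of *DUSP6*, *ETV4* or *SPRY4* was not called different between the stages. Between the stages, 6 were higher at E5 in developing (10.8% of all genes), 3 in 6hPR (11.3%) and 4 in 6hPR + FGF2 RPE (16.7%), with 0 lower. Examples are *SPRY1* (349 to 681, log2 0.94 ± 0.26, 0.016) and *EGR1* (533 to 913, log2 0.77 ± 0.16, 0.0024) in developing, *DUSP5* (6152 to 13363, log2 1.24 ± 0.27, 0.0044) and *ETV5* (2974 to 5952, log2 1.06 ± 0.17, 0.00048) in 6hPR, and *SPRED2* (1175 to 1894, log2 0.69 ± 0.17, 0.0064) and *EGR1* (2496 to 3531, log2 0.49 ± 0.16, 0.029) in 6hPR + FGF2 RPE. The FGF2 step differed between the stages for 1 of the 15, *SPRED2* (log2 0.95, adjusted p = 0.047), beside 2.54% of all genes.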

How the data were processed

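RPE mRNA of 18 libraries was sequenced by the authors (TruSeq Stranded mRNA, NovaSeq). Per the methods and the submitters' processing notes, trimming used Cutadapt and Trim Galore, alignment STAR on GRCg6a and quantification StringTie with Ensembl release 101, genes under 10 raw counts were dropped, and counts were divided by DESeq2 size factors. Versions are not given in the sources used here. The deposited signal values are these normalized counts per gene, of which 5849 rows carry no symbol. Multiplied by the size factor, 100% of the values were whole within 1e-06, which gave back the reads. Depth differed by less than 1.5 times between libraries. Read sampling weighs most on genes with few reads, and its part in the spread of the members was not computed. Spread between pools limits precision at higher counts too. In E5 developing libraries, for example, *FGF19* ran from 46.4 to 1969 and *FGF13* from 68.4 to 269 counts.

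Log2(value + 0.5) of genes with a summed value of 10 or more was fitted with limma 3.58.1 (R 4.3.3, 1 mean per group, variance trend), with Benjamini-Hochberg adjustment over all genes. Because the values are not raw counts, the recovered reads were tested with DESeq2 1.42.0 and with edgeR 4.0.16 as alternatives, besides other pseudocounts (1 and 5), filters, scalings, a replicate block, fits of only the groups compared, each library left out, and both libraries poor in chromosome W transcripts left out. The fit was also run on simulated counts that gave every gene the same dispersion between libraries. That run does not bear on genes with a wide spread between pools, such as *FGF8* and *FGF19*. An exact permutation test of 3 against 3 libraries cannot go below p = 0.1 and was not used. P-values measure the spread between pools of 3 sheets. The members, gene lists and marker lists were chosen with earlier results of these data known. Named besides the members were, per list and comparison, up to 2 called genes with the largest rise and 2 with the largest fall (mean of 50 or more, groups not overlapping), other FGF ligands with a mean of 50 or more, and the 3 genes most correlated with *FGFR1*, *FGFR2*, *FGFR3* and *FGF2*.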

Additional observations from a re-analysis of the deposited data

Results flagged for a closer look

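The response of *FGF1* to retinectomy with FGF2 differed between the stages: the log2 fold change against developing RPE at E5 minus that at E4 was -3.65 (limma interaction term, adjusted p = 0.0045). For 6hPR + FGF2 against 6hPR RPE the same difference was -3.09 (adjusted p = 0.026), and it did not pass without both libraries poor in chromosome W transcripts (adjusted p = 0.14).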

How the results depend on the processing

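Of the 35 calls among 120 comparisons of the members, 18 held under every alternative and 0 changed direction. The number of members called moved by over 1.5 times as follows. In E5 against E4 with FGF2 it was 2 in a fit of only the groups compared, by DESeq2 and without both libraries poor in chromosome W transcripts. In 6hPR against developing RPE it was 1 by quantile normalization and 0 with only the groups compared at E4, and 1 with only the groups compared at E5. In the step from 6hPR to 6hPR + FGF2 it was 1 with only the groups compared at E4 and 2 without the variance trend at E5. The fit of only the groups compared lost 14 calls and gained 3 and has fewer libraries to estimate the spread; the cause of the other moves was not tested. Of the 60 counts of genes called in the receptor, ligand, heparan sulfate, signal carrier and feedback lists, 17 moved with DESeq2. Values per kilobase were not run.

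Same-numbered libraries share only a number: correlations of their deviations ran from -0.23 to 0.29 and no comparison had all 3 above 0.1. With the replicate block the counts of members called were 2, 3 and 1 between the stages (developing, 6hPR, 6hPR + FGF2), 2 and 4 after retinectomy (E4, E5), 6 and 5 for 6hPR + FGF2 against developing RPE, 4 and 3 for the FGF2 step, and 0, 1 and 1 for the stage differences of these responses. The block ended 3 calls: the E4 FGF2 step of *FGFR4* (adjusted p = 0.052), the E4 rise of *FGF1* after retinectomy (0.059) and the E5 FGF2 step of *FGF8* (0.058).

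Small differences that passed no test changed sign under some settings; here stage stands for E5 against E4 within a condition, retinectomy for 6hPR and joint for 6hPR + FGF2, each against developing RPE, step for 6hPR + FGF2 against 6hPR, and interaction for E5 minus E4 of a response, all in log2. With quantile normalization it became -0.071 for *FGFR1* (6hPR stage), 0.18 for *FGFR1* (step interaction), -0.037 for *FGFR3* (FGF2 stage), 0.0017 for *FGFR4* (developing stage), -0.012 for *FGFRL1* (FGF2 stage), -0.17 for *FGF8* (FGF2 stage), -0.072 for *FGF10* (6hPR stage) and -0.10 for *FGF13* (E4 joint). With TMM scaling it became -0.011 for *FGFR3* (FGF2 stage) and -0.013 for *FGF10* (6hPR stage). With edgeR it became 0.012 for *FGFR4* (developing stage), 0.17 for *FGF10* (developing stage), -0.088 for *FGF10* (retinectomy interaction) and -0.021 for *FGF13* (joint interaction). With DESeq2 it became 0.026 for *FGFR4* (developing stage), 0.18 for *FGF10* (developing stage), -0.11 for *FGF10* (retinectomy interaction) and -0.018 for *FGF13* (joint interaction). Without both libraries poor in chromosome W transcripts it became -0.036 for *FGFRL1* (FGF2 stage), -0.12 for *FGF10* (6hPR stage), -0.021 for *FGF10* (retinectomy interaction), 0.025 for *FGF13* (6hPR stage) and -0.17 for *FGF13* (E4 joint). With 1 library left out at a time the values ranged as follows. *FGFR1* ran from -0.15 to 0.028 (developing stage) and -0.17 to 0.058 (step interaction). *FGFR2* ran from -0.16 to 0.0071 (developing stage), -0.10 to 0.29 (FGF2 stage), -0.036 to 0.27 (E4 retinectomy), -0.19 to 0.0057 (E5 joint) and -0.037 to 0.35 (joint interaction). *FGFR3* ran from -0.12 to 0.10 (FGF2 stage). *FGFR4* ran from -0.16 to 0.23 (developing stage), -0.0073 to 0.17 (E4 retinectomy) and -0.094 to 0.29 (joint interaction). *FGFRL1* ran from -0.069 to 0.095 (FGF2 stage), -0.35 to 0.0041 (E5 joint) and -0.34 to 0.013 (retinectomy interaction). *FGF1* ran from -0.71 to 0.028 (E5 joint). *FGF2* ran from -0.13 to 0.10 (E4 step) and -0.10 to 0.36 (retinectomy interaction). *FGF8* ran from -1.09 to 1.12 (FGF2 stage), -0.13 to 4.93 (E5 retinectomy) and -0.13 to 4.93 (retinectomy interaction). *FGF10* ran from -0.67 to 0.53 (developing stage), -0.24 to 0.40 (6hPR stage), -0.30 to 0.91 (E5 retinectomy), -0.52 to 0.68 (retinectomy interaction) and -0.061 to 1.14 (joint interaction). *FGF13* ran from -1.15 to 0.025 (6hPR stage), -0.17 to 0.44 (E4 joint), -0.084 to 0.90 (E5 joint) and -0.15 to 0.83 (joint interaction). The number of members called ran over the same fits from 0 to 3 (E4 retinectomy), 2 to 5 (E4 step), 2 to 3 (E5 step) and 0 to 1 (step interaction).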
